A study of Drosophila melanogaster with 10 samples.

Results

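Expression of Yki and depletion of NelfA by RNAi had been applied to wing imaginal discs alone and together, and the question addressed here is which genes took a level in the combined genotype that the effects of the separate treatments, added on the log2 scale, do not give. For each gene the departure from additivity, called the interaction, was the effect of the RNAi in Yki-expressing discs (ap > Yki+NelfAi minus ap > Yki) minus the effect of the RNAi in discs without the Yki transgene (ap > NelfAi minus ap > GFP). All 10 libraries of the series enter it, and 7858 of the 7987 genes in the deposited values were tested. The combined genotype, ap > Yki+NelfAi (3 libraries), carried UAS-Yki and a UAS-RNAi construct against Nelf-A (line KK106245) and was labelled as neoplastic. The ap > Yki discs (3 libraries) were labelled as mildly overgrown or hyperplastic, and the ap > NelfAi discs (2 libraries) and the ap > GFP discs (2 libraries) as wild type in growth. All genotypes carried the Gal4 driver under the apterous enhancer, UAS-GFP and tubulin-Gal80ts, and the control crosses an extra copy of GFP. Discs of the third larval instar were pooled for each library, with the fewest discs for the tumorous genotype. Since apterous drives expression in the dorsal compartment and whole discs were sequenced, each library also held RNA of ventral cells without transgene expression, and in such bulk RNA fewer cells of a type and less RNA per cell cannot be told apart.

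Yki is the transcriptional coactivator that the Hippo kinase cascade restrains, and with the DNA-binding protein Scalloped it activates genes for growth and survival of disc cells. NELF is the negative elongation factor, a complex that holds RNA polymerase II in a paused state shortly after it has started transcription, until the kinase Cdk9 of P-TEFb releases it. Heat shock genes are the classical example of paused genes in Drosophila, and many developmental genes are paused as well. Additive effects on the log2 scale mean that the folds of the separate treatments multiply, so an interaction of 1 is a level 2-fold above, and of -1 a level 2-fold below, that product.

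The libraries had 6990931 to 13065642 reads on genes, and the deposited value is a read count divided by a factor of its library, so that 1 read is worth 0.0464 to 0.0839. Nelf-A, the target of the RNAi, had values of 17.1, 15.8 and 16.9 in ap > Yki+NelfAi discs, 28.1, 31.9 and 39.4 in ap > Yki discs, 11.4 and 32.9 in ap > NelfAi discs and 40.4 and 36.0 in ap > GFP discs. The library labelled ap > NelfAi replicate 2 was thus at 86.2% of the ap > GFP mean, inside the range of libraries that lack the construct as deposited. The libraries labelled ap > NelfAi also stood apart from each other, with a Spearman correlation across genes of 0.865, against 0.952 to 0.990 between replicates of the other genotypes. The deviation of a gene in replicate 1 fell with its transcript length (rho = -0.662 across genes), and in replicate 2 it rose with it (rho = 0.488). Such a trend was not confined to this pair, with rho = 0.471 in ap > Yki replicate 3 and 0.293 in ap > Yki+NelfAi replicate 1. In the remaining libraries rho lay between -0.208 and 0.208. With each library's length trend removed, Nelf-A was at 14.5, 16.5 and 16.5 in ap > Yki+NelfAi discs, 31.1, 33.2 and 31.7 in ap > Yki discs, 18.3 and 26.1 in ap > NelfAi discs and 37.3 and 34.8 in ap > GFP discs, so that both ap > NelfAi libraries then lay below every library without the construct. Every interaction below rests on these libraries, and the value of a called gene is also given without a library where leaving it out moved that value by more than 1.5-fold. The interaction of Nelf-A itself was -0.01 (SE 0.51, adjusted p = 0.995), with -0.76 without ap > NelfAi replicate 1 and 0.73 without replicate 2.

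A gene was called when limma gave an adjusted p under 0.05 over all 7858 genes and an interaction of at least 1.5-fold in either direction. This held for 99 genes, 1.26% of those tested. Of them 25 were higher than additive (0.318% of the genes tested) and 74 were lower (0.942%). At an unadjusted p under 0.05 there were 1160 genes, 535 higher and 625 lower. The interaction is an imprecise quantity, since it carries the error of 4 genotypes: its median SE was 0.40, against 0.25 for ap > Yki+NelfAi minus ap > Yki, and the smallest interaction that was called was 1.33. The 95% interval lay inside 1.5-fold in either direction for only 62 genes (0.789%). For the other genes that were not called, additivity was therefore not shown either. The call nearest the threshold was CG3649 (adjusted p = 0.0498), and the next gene outside it was Faa (adjusted p = 0.0503). The interaction of Faa was -2.03 with an SE of 0.40.

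Most called genes had their extreme level in the tumorous discs. Among the 25 genes higher than additive, the 3 tumorous libraries lay above all 7 others in 24, against 11.4% of all genes tested, and the highest mean was theirs in 24, against 35.7%. Among the 74 genes lower than additive, they lay below all 7 others in 67, against 12% of all genes, and the lowest mean was theirs in 70, against 32.6%. The mean of ap > NelfAi was within 1.5-fold of that of ap > GFP in 19 of the 25 and in 50 of the 74, smaller shares than the 86% of all genes. The median effect of the RNAi without Yki was -0.14 for the higher genes and -0.25 for the lower genes, whereas in Yki discs it was 2.27 and -2.57. In the comparison of ap > NelfAi with ap > GFP alone, limma called 2 of the 7858 genes higher (0.0255%) and 4 lower (0.0509%), and among the 99 genes it called only CG42697 and Cyp6a17, both lower. The RNAi effect in Yki discs was called upward for 24 of the 25, against 7.2% of all genes, and downward for 72 of the 74, against 10.2%. Tumorous discs set against ap > NelfAi were called higher for all 25 (8.36% of all genes) and lower for 67 of the 74 (9.11%), and set against ap > GFP higher for 24 of the 25 (10% of all genes) and lower for 66 of the 74 (12.1%). These simple effects share their libraries with the interaction and are no separate evidence for it.

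Genes of either direction had been raised, lowered or left near the control by Yki alone. Of the 74 lower genes 27 stood at least 1.5-fold above ap > GFP in ap > Yki discs, 19 at least 1.5-fold lower and 28 in between. The highest mean was in ap > Yki for 39 of them, in ap > GFP for 22 and in ap > NelfAi for 13, against 23.4%, 22.1% and 18.8% of all genes. Of the 25 higher genes 7 stood at least 1.5-fold above ap > GFP in ap > Yki discs, 2 at least 1.5-fold lower and 16 in between. For Yki alone limma called 13 of the 74 higher and 7 lower, and 6 of the 25 higher and none lower, against 2.41% and 1.64% of all genes. On the untransformed values, where effects add and do not multiply, 96 of the 99 genes kept their direction, and wbl, Ance and spz6 did not.

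**Figure D1:**
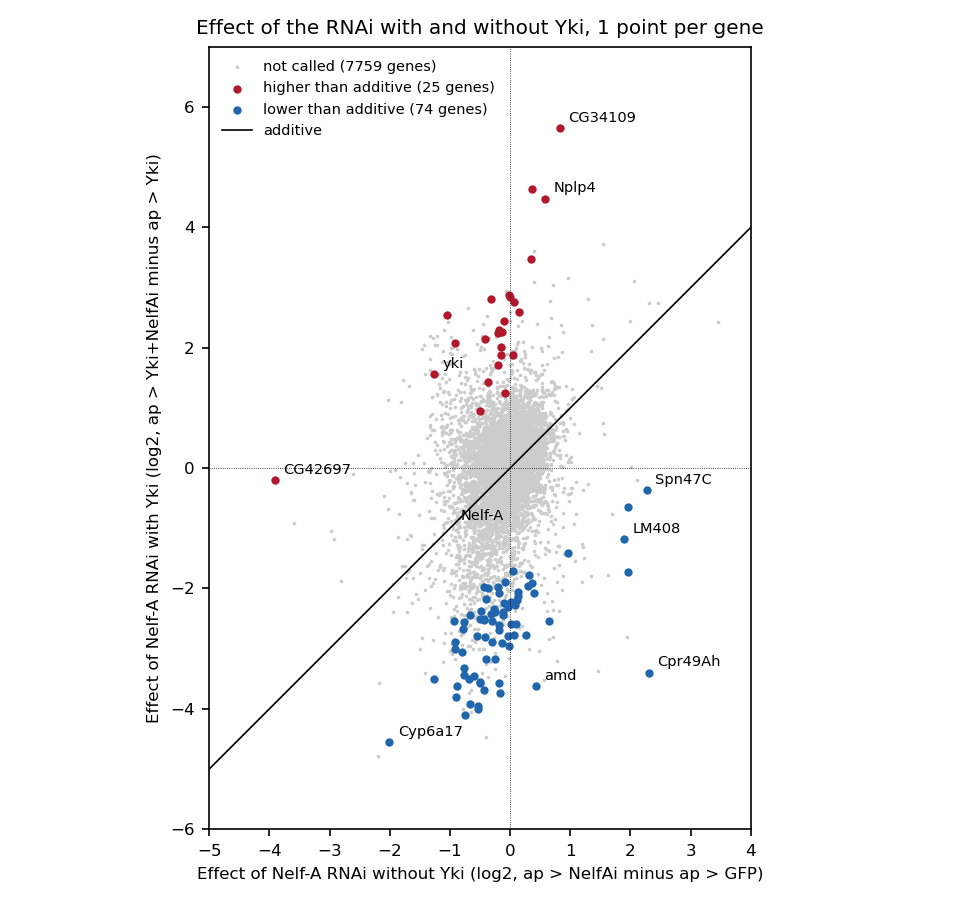
Effect of Nelf-A RNAi on each of the 7858 genes (log2 scale), with Yki on the vertical axis (ap > Yki+NelfAi minus ap > Yki) and without Yki on the horizontal axis (ap > NelfAi minus ap > GFP). Red points are the 25 genes called higher than additive and blue points the 74 called lower. On the black line the effects are equal, and most called genes lie near 0 on the horizontal axis and far from 0 on the vertical axis.

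Of the genes higher than additive, CG34109 (chr2L:10094088-10125736, positions of dm6) had the largest interaction. Its values were 38.5, 24.4 and 17.2 in ap > Yki+NelfAi discs, 0, 0 and 0.0464 in ap > Yki discs, 0.252 and 0.551 in ap > NelfAi discs and 0 in each ap > GFP library. That is 1512 reads in the tumorous libraries against 1, 12 and 0 reads in the libraries of the other genotypes. The interaction of 4.82 (SE 0.48, adjusted p = 0.00452) depends on the pseudocount of 0.5, with which the lowest levels are compared. The test of edgeR on the reads did not call it (adjusted p = 0.973). CG13067 (chr3L:16271282-16271918) had values of 25.2, 20.6 and 13.0 in tumorous discs, 0.377, 0.095 and 0.418 in ap > Yki discs, 2.43 and 0.980 in ap > NelfAi discs and 1.66 and 0.702 in ap > GFP discs. Its interaction was 4.26 (SE 0.59, adjusted p = 0.0187), and the tumorous libraries stood clear of all others.

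Secreted signals and signalling inhibitors were found among the higher genes. The gene upd3 (chrX:18277233-18284596) encodes a cytokine of the Unpaired family, the ligands of the JAK/STAT pathway. Its values were 17.1, 25.2 and 15.5 in ap > Yki+NelfAi discs, 4.04, 4.18 and 4.69 in ap > Yki discs, 0.923 and 1.47 in ap > NelfAi discs and 1.79 and 1.03 in ap > GFP discs. Yki discs were above ap > GFP without the RNAi, and with the RNAi the level was higher still, which gave an interaction of 2.17 (SE 0.40, adjusted p = 0.0399). ImpL2 (chr3L:4224006-4236147) encodes a secreted protein that binds insulin-like peptides and inhibits insulin signalling. It had values of 285, 577 and 356 in tumorous discs, 85.1, 97.5 and 92.8 in ap > Yki discs, 28.6 and 79.1 in ap > NelfAi discs and 92.3 and 88.6 in ap > GFP discs. The tumorous libraries stood clear of all others, and those of ap > Yki and ap > GFP overlapped. The interaction of 2.99 (SE 0.57, adjusted p = 0.0429) became 2.27 without ap > NelfAi replicate 1 and 3.72 without replicate 2. The exons of ImpL2 overlap those of CG46460 on the same strand, so part of its reads cannot be told apart.

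Thor (chr2L:3478434-3479612) encodes 4E-BP, which inhibits cap-dependent translation and is itself inhibited by TOR. Its values were 307, 413 and 347 in ap > Yki+NelfAi discs, 85.2, 74.8 and 79.1 in ap > Yki discs, 17.8 and 9.49 in ap > NelfAi discs and 25.3 and 12.03 in ap > GFP discs. Yki alone and the combination each lay above ap > GFP, and the combination exceeded the additive level by 2.55 (SE 0.47, adjusted p = 0.0412). Nplp4, which encodes a neuropeptide-like precursor, had values of 29.6, 39.3 and 22.8 in tumorous discs, 1.46, 0.617 and 0.650 in ap > Yki discs, 3.02 and 1.04 in ap > NelfAi discs and 2.24 and 0.378 in ap > GFP discs. Its interaction of 3.89 (SE 0.74, adjusted p = 0.0429) was 3.07 without ap > GFP replicate 1 and 4.71 without ap > GFP replicate 3. It was 4.49 without ap > NelfAi replicate 1 and 3.30 without replicate 2. Of these secreted or translational regulators, DESeq2 and limma called each, and edgeR called Thor (adjusted p = 0.0472) but not upd3 (0.0575), ImpL2 (0.0533) or Nplp4 (0.0708).

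Transcription factors among the higher genes were chosen after their values had been seen. The gene cbt encodes Cabut, a zinc finger protein of the TIEG family. It had 81.7, 123 and 120 in ap > Yki+NelfAi discs, 17.8, 25.9 and 22.2 in ap > Yki discs, 16.02 and 28.8 in ap > NelfAi discs and 26.7 and 20.9 in ap > GFP discs. The last 3 genotypes overlapped, and the interaction was 2.40 (SE 0.42, adjusted p = 0.0326). The Hox gene labial (lab) was low throughout, with 1.85, 2.33 and 2.49 in tumorous discs and at most 0.511 in any other library. It had 123 reads in the tumorous libraries and 5, 6 and 10 in those of ap > Yki, ap > NelfAi and ap > GFP. The interaction of lab was 2.44 (SE 0.47, adjusted p = 0.0449) by limma, and edgeR gave an adjusted p of 0.112.

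Genes for membrane transport and metabolism were also among the 25. Mrp4, an ABC transporter, had 65.1, 45.5 and 33.1 in tumorous discs, 7.49, 4.18 and 6.92 in ap > Yki discs, 1.85 and 3.18 in ap > NelfAi discs and 3.39 and 1.73 in ap > GFP discs, and an interaction of 2.84 (SE 0.54, adjusted p = 0.0421). CG42575, called NaPi-III in the reference annotation, had 184, 99.6 and 83.5 in tumorous discs, against 13.7 to 25.4 in the 7 other libraries, and an interaction of 2.71 (SE 0.49, adjusted p = 0.0385). Sam-S, which encodes S-adenosylmethionine synthetase, was the most highly expressed endogenous gene of the group. It had values of 1535, 1411 and 1087 in ap > Yki+NelfAi discs, 528, 537 and 617 in ap > Yki discs, 262 and 237 in ap > NelfAi discs and 267 and 259 in ap > GFP discs. The genotypes with Yki lay above those without, and the interaction of 1.33 (SE 0.26, adjusted p = 0.0494) was the smallest in size of the 99. CG18522, called AOX1 in the reference annotation, had 29.3, 36.1 and 20.8 in tumorous discs, 3.94 to 6.31 in ap > Yki discs and 0.674 to 1.21 in the libraries without Yki, with an interaction of 2.53 (SE 0.43, adjusted p = 0.031).

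RNA processing and the cytoskeleton were represented by few genes. Uhg1, a host gene of small nucleolar RNAs, was the noncoding gene of the group. Its values were 22.9, 36.5 and 25.6 in tumorous discs and 6.63 to 9.34 in the 7 other libraries, and its interaction was 1.83 (SE 0.31, adjusted p = 0.031). Gem3, a helicase of the SMN complex that assembles spliceosomal particles, had 8.73, 10.8 and 11.0 in tumorous discs against 1.89 to 3.77 in all others, with an interaction of 1.91 (SE 0.36, adjusted p = 0.0421). The actin nucleator Spire (spir) had 36.8, 33.3 and 30.4 in tumorous discs against 3.10 to 10.2 in all others, with an interaction of 2.48 (SE 0.49, adjusted p = 0.0494). The effect of the RNAi without Yki was 0.04 for Uhg1, -0.20 for Gem3 and -0.19 for spir. The other genes of the group whose tumorous libraries lay above all others were CG42319, fok, CG17104, CG18213, Adk1 and CG40198. Their interactions lay between 1.44 for CG17104 and 3.14 for CG42319.

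The gene yki was itself higher than additive. Its reads hold those of the UAS-Yki transgene as far as the transgene shares the sequence of the gene. The values were 8143, 11376 and 9925 in ap > Yki+NelfAi discs, 2637, 3396 and 4007 in ap > Yki discs, 187 and 75.0 in ap > NelfAi discs and 265 and 307 in ap > GFP discs. Each tumorous library was above each ap > Yki library, and each ap > NelfAi library was below each ap > GFP library. The interaction was 2.82 (SE 0.50, adjusted p = 0.0332), with 3.48 without ap > NelfAi replicate 1 and 2.16 without replicate 2. The genotypes with the transgene thus differed in yki level by a log2 value of 1.56 (ap > Yki+NelfAi minus ap > Yki), and its part in the other interactions was not tested.

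CG42697 (chr2R:18611645-18612730) was the exception in shape. Its values were 7.21, 10.6 and 8.68 in ap > Yki+NelfAi discs, 8.52, 12.2 and 9.80 in ap > Yki discs, 0.0839 and 0.122 in ap > NelfAi discs and 7.10 and 10.3 in ap > GFP discs. Only 3 reads were found in the ap > NelfAi libraries, and the other 3 genotypes overlapped. The interaction of 3.71 (SE 0.36, adjusted p = 0.00452) therefore rested on the loss in ap > NelfAi (-3.91), with an RNAi effect of -0.19 in Yki discs. It was called in each of the 10 fits that left out a library. Its exons overlap those of GEFmeso on the same strand.

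**Figure D2:**
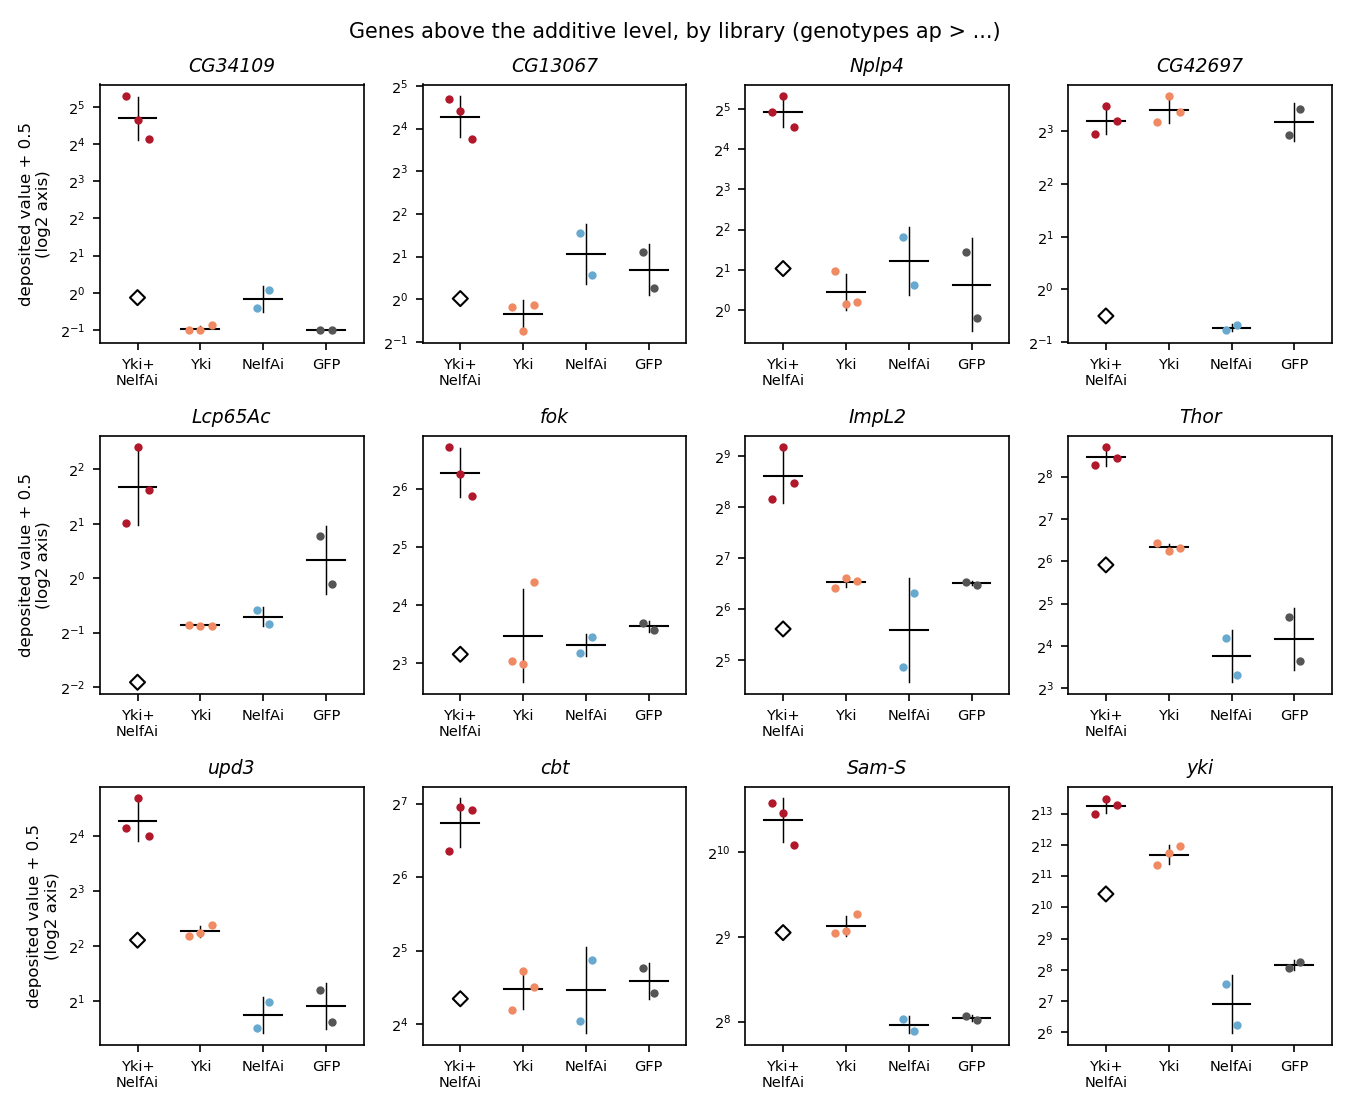
Values of 12 genes called higher than additive in each library (deposited value + 0.5, log2 axis), by genotype. Points are libraries, horizontal bars the mean and vertical bars the SD on the log2 scale, and the open diamond is the level expected for ap > Yki+NelfAi from additive effects. In all panels but that of CG42697 the tumorous libraries lie above every other library, and in the panel of CG42697 the ap > NelfAi libraries lie below every other.

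Genes of the cuticle and its pigmentation were among the genes lower than additive. Cpr49Ah, a cuticle protein with a chitin-binding Rebers and Riddiford domain, had the largest departure of the called genes. Its values were 0.474, 0.685 and 4.49 in ap > Yki+NelfAi discs, 14.9, 13.3 and 31.3 in ap > Yki discs, 34.6 and 20.8 in ap > NelfAi discs and 6.52 and 3.89 in ap > GFP discs. The separate treatments each lay above ap > GFP, whereas the tumorous libraries lay below it or overlapped it. The level expected from additive effects was 92.8 against an observed level of 1.29, both averaged as log2 values and turned back to the deposited scale. The interaction was -5.70 (SE 0.94, adjusted p = 0.0304), and -6.44 without ap > Yki+NelfAi replicate 3. Cpr66D (chr3L:8640439-8643584), of the same family, had 0.996, 2.12 and 2.04 in tumorous discs, 27.1, 29.8 and 28.2 in ap > Yki discs, 11.1 and 9.62 in ap > NelfAi discs and 11.0 and 12.5 in ap > GFP discs. It was highest in ap > Yki and lowest in the tumorous discs, with an interaction of -3.57 (SE 0.36, adjusted p = 0.00452). It was called in 9 of the 10 fits that left out a library.

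The gene amd (chr2L:19110154-19114110) encodes a relative of dopa decarboxylase that is needed for an intact cuticle. Its values were 0.569, 1.85 and 1.85 in ap > Yki+NelfAi discs, 30.5, 19.6 and 17.3 in ap > Yki discs, 5.70 and 4.47 in ap > NelfAi discs and 3.96 and 3.35 in ap > GFP discs. The level that was raised in Yki discs was below all other libraries in the tumorous discs, with an interaction of -4.05 (SE 0.53, adjusted p = 0.0153). A similar order was found for yellow-e2, a member of the yellow family to which the pigmentation gene yellow belongs. It had 0.664, 0.480 and 0.648 in tumorous discs, 12.5, 13.8 and 11.1 in ap > Yki discs, 8.47 and 6.80 in ap > NelfAi discs and 7.7999 and 9.77 in ap > GFP discs. The interaction of yellow-e2 was -3.37 (SE 0.30, adjusted p = 0.00337), and it was called in each of the 10 fits that left out a library. Its neighbour yellow-e, 2545 bases away on chromosome 3R, was also lower than additive, at -2.09 (SE 0.38, adjusted p = 0.0404). Cpr35B was at -2.24 (adjusted p = 0.0429), whereas Lcp65Ac and Cpr47Eb, also cuticle genes, went the other way.

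Lcp65Ac had 1.52, 4.80 and 2.59 in tumorous discs, 0.0464 to 0.0539 in ap > Yki discs, 0.168 and 0.0612 in ap > NelfAi discs and 1.21 and 0.432 in ap > GFP discs. With 1 read in each ap > Yki library, its interaction of 3.59 (SE 0.60, adjusted p = 0.0304) moved to 6.22 with a pseudocount of 0.1 and to 2.51 with a pseudocount of 1. Cpr47Eb had 6.403, 11.2 and 6.68 in tumorous discs against 0.245 to 1.13 in the 7 other libraries, with an interaction of 2.90 (SE 0.51, adjusted p = 0.0326). Genes of the Lcp65A cluster are close copies of each other, so reads could be split between them. Of the 43 cuticle protein genes tested, 2 were thus called higher and 3 lower, against 0.318% and 0.942% of all genes. Of the 43, 28 had an interaction below 0, against 48.4% of all genes. The median was -0.67 (0.02 for all genes tested), but -0.04 without ap > NelfAi replicate 1 and -0.94 without replicate 2.

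Of the 27 genes of chitin and the apical matrix none was called and 20 lay below 0, against 48.4% of all genes. Their median was -0.66, with -0.58 without ap > NelfAi replicate 1 and -0.36 without replicate 2. Of the 24 genes of apical-basal polarity and adhesion none was called and 17 lay above 0, against 51.6% of all genes. The median of the polarity and adhesion list was 0.30, with -0.23 without ap > NelfAi replicate 1 and 0.65 without replicate 2. Of the 14 basement membrane genes 1 was called lower, against 0.942% of all genes. They lay with 7 on each side of 0 and had a median of -0.10 (-1.06 without ap > NelfAi replicate 1 and 0.63 without replicate 2). Genes outside or within these lists that were called lower are given next. The gene neo, whose product is a zona pellucida domain protein of the apical matrix, had 1.28, 1.58 and 2.54 in ap > Yki+NelfAi discs, 34.1, 26.8 and 31.9 in ap > Yki discs, 24.3 and 49.6 in ap > NelfAi discs and 62.1 and 68.4 in ap > GFP discs. It was lower in ap > Yki than in every ap > GFP library and lowest in the combination, which lay below the additive level (interaction -2.91, SE 0.45, adjusted p = 0.0287). NijA, the adhesion protein Ninjurin A, had 0.664, 3.70 and 1.60 in tumorous discs against 25.5 to 66.8 in the 7 other libraries. Its interaction was -3.25 (SE 0.64, adjusted p = 0.0488). BM-40-SPARC, which encodes a collagen-binding protein of basement membranes, had 10.1, 16.2 and 19.95 in tumorous discs, 58.3, 50.2 and 62.8 in ap > Yki discs, 71.97 and 42.6 in ap > NelfAi discs and 45.2 and 40.4 in ap > GFP discs. Its interaction was -2.27 (SE 0.44, adjusted p = 0.0429). Among the other basement membrane genes, Pxn had the largest interaction of the list, at -2.42 (SE 0.57, adjusted p = 0.0803), and was not called. Both type IV collagen genes were also below 0 without passing the test, with Cg25C at -1.55 (adjusted p = 0.16) and vkg at -1.46 (adjusted p = 0.17). The gene trol, which encodes perlecan, was at 1.36 (SE 1.21). Collagen IV of the disc is known to be made mainly by the larval fat body and by hemocytes.

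Protease inhibitors and proteases formed another group. Spn28Dc, a serpin, had 1.14, 2.81 and 3.34 in ap > Yki+NelfAi discs, 31.1, 20.1 and 23.2 in ap > Yki discs, 9.14 and 9.06 in ap > NelfAi discs and 11.3 and 10.5 in ap > GFP discs. Its interaction was -2.93 (SE 0.49, adjusted p = 0.0304). Spn47C took another course, with 0.854, 0.822 and 0.599 in tumorous discs, 1.13, 1.28 and 0.929 in ap > Yki discs, 5.45 and 2.94 in ap > NelfAi discs and 0.448 and 0.432 in ap > GFP discs. It was highest in ap > NelfAi, and its interaction of -2.63 (SE 0.41, adjusted p = 0.0287) came from an RNAi effect of 2.27 without Yki against -0.36 with Yki. The 12 serpin genes tested had a median interaction of -1.59, and 11 were below 0, against 48.4% of all genes. Spn28Dc and Spn47C were the 2 called lower, against 0.942% of all genes. The median of the serpins lay between -1.67 and -1.49 under the other scalings and kept its sign in each alternative. The protease genes grass, whose product acts upstream of Toll in immunity, Nep2, a neprilysin, and SP1029, a metallopeptidase, were at -2.24, -2.39 and -2.60. CG4914, annotated by number only, had 0.237, 0.617 and 1.25 in tumorous discs against 11.1 to 38.8 elsewhere, with an interaction of -3.25 (SE 0.50, adjusted p = 0.0287).

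Of 48 genes for cytochromes P450 and glutathione S-transferases 4 were called lower than additive. GstO3, an omega class glutathione S-transferase, had 3.94, 9.39 and 8.78 in ap > Yki+NelfAi discs, 111, 76.4 and 77.9 in ap > Yki discs, 95.4 and 60.1 in ap > NelfAi discs and 104 and 111 in ap > GFP discs. The 7 libraries of the other genotypes overlapped, and the interaction was -3.07 (SE 0.51, adjusted p = 0.0304). GstS1, the sigma class enzyme, had 60.4, 90.7 and 104 in tumorous discs and 259 to 347 elsewhere, with an interaction of -1.80 (SE 0.33, adjusted p = 0.0375). GstT4 was at -1.78 (adjusted p = 0.0312). It lies 46 bases from CG1998 on chromosome X, which was at -2.42 (adjusted p = 0.0326).

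The cytochrome P450 gene Cyp6a17 (chr2R:14873953-14875739) had values of 0, 0.0685 and 0.0499 in ap > Yki+NelfAi discs, 10.5, 11.3 and 15.2 in ap > Yki discs, 1.68 and 2.14 in ap > NelfAi discs and 8.44 and 9.88 in ap > GFP discs. Both genotypes with the RNAi construct were below both without it, with 2 reads in the tumorous libraries and 55 in those of ap > NelfAi. The interaction of -2.55 (SE 0.33, adjusted p = 0.0153) was -4.28 with a pseudocount of 0.1 and -1.86 with a pseudocount of 1. Its relative Cyp6a23 had an interaction of -0.01 (SE 0.59), and reads of such close copies could be split between them. Over the 48 genes tested of both enzyme families, 4 were called lower and none higher, against 0.942% and 0.318% of all genes. An interaction below 0 was found for 39 of the 48, against 48.4% of all genes, and the median was -0.55, with -0.36 without ap > NelfAi replicate 1 and -0.77 without replicate 2.

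Single genes of signalling pathways were also called lower, with 1 of 21 genes in the EGFR and FGF list (btl), 1 of 21 in the Dpp list (tld) and none in the Wingless, Hedgehog and Notch lists. Of all genes tested 0.942% were called lower. The gene btl (chr3L:14075772-14083229) encodes Breathless, the FGF receptor of tracheal cells. It had 0.569, 0.617 and 0.499 in ap > Yki+NelfAi discs, 5.61, 9.64 and 5.85 in ap > Yki discs, 1.51 and 2.27 in ap > NelfAi discs and 1.98 and 1.83 in ap > GFP discs. Raised in Yki discs, it was below all other libraries in the tumorous discs, with an interaction of -2.76 (SE 0.40, adjusted p = 0.0245). Its ligand gene bnl (branchless) had 10.2, 26.7 and 12.7 in tumorous discs, 2.26, 2.42 and 3.53 in ap > Yki discs, 0.503 and 1.65 in ap > NelfAi discs and 1.92 and 1.62 in ap > GFP discs. The interaction of bnl was 2.92 (SE 0.62) with an adjusted p of 0.0641, so that it was not called. Of the 6 tracheal markers btl was the only member called, and the other 5 lay between -0.88 for dys and 0.89 for trh. The summed tracheal markers were at 1170 to 1318 in tumorous discs, 1015 to 1333 in ap > Yki discs, 509 to 655 in ap > NelfAi discs and 590 to 853 in ap > GFP discs, and their part in the interaction of btl was not tested.

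The metalloprotease gene tld (tolloid), whose product frees Dpp and related ligands from the inhibitor Sog, had 9.82, 6.85 and 7.58 in ap > Yki+NelfAi discs, 48.1, 36.0 and 49.0 in ap > Yki discs, 15.4 and 21.3 in ap > NelfAi discs and 21.2 and 22.0 in ap > GFP discs. It was highest in ap > Yki and below all other libraries in the tumorous discs, and the interaction was -2.14 (SE 0.33, adjusted p = 0.0287). The gene wbl (windbeutel), which encodes an endoplasmic reticulum protein needed for dorsoventral patterning of the embryo, had 0.190, 0.137 and 0.698 in tumorous discs, 17.2, 15.6 and 6.32 in ap > Yki discs, 65.9 and 44.7 in ap > NelfAi discs and 72.1 and 86.1 in ap > GFP discs. Yki discs were already far below ap > GFP, and the combination lay below them by another 3.42 more than additive (interaction -3.42, SE 0.61, adjusted p = 0.0355). On the untransformed values the departure of wbl had the other sign. A change of sign on the untransformed values was also found for Ance, a homologue of angiotensin converting enzyme, with 7.68, 12.1 and 22.4 in tumorous discs, 98.0, 108 and 161 in ap > Yki discs, 410 and 351 in ap > NelfAi discs and 498 and 506 in ap > GFP discs (interaction -2.77, SE 0.54, adjusted p = 0.0464). The same was found for spz6, of the Spätzle family of Toll ligands, at -1.91 (SE 0.34, adjusted p = 0.0375).

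The homeobox gene al (aristaless) was at -1.90 (SE 0.30, adjusted p = 0.0287), and the bZIP repressor gene vri at -2.36 (SE 0.35, adjusted p = 0.027). The values of vri were 5.26, 7.68 and 9.48 in tumorous discs, 39.8, 37.4 and 34.6 in ap > Yki discs, 27.8 and 21.6 in ap > NelfAi discs and 24.6 and 21.7 in ap > GFP discs. Irk1, an inwardly rectifying potassium channel, was at -2.06 (SE 0.32, adjusted p = 0.0287). Its values were 3.98, 3.84 and 5.99 in tumorous discs and 24.5 to 49.8 in the 7 other libraries.

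Genes for metabolic enzymes called lower, which form no list here, included the following. LM408, a lysosomal alpha-mannosidase called LManII in the reference annotation, had 0.901, 3.29 and 2.34 in ap > Yki+NelfAi discs, 5.44, 4.37 and 5.57 in ap > Yki discs, 14.0 and 19.2 in ap > NelfAi discs and 3.90 and 4.16 in ap > GFP discs. The RNAi went in opposite directions, with 1.90 without Yki and -1.18 with Yki, and the interaction was -3.08 (SE 0.53, adjusted p = 0.031). CG3902 had 3.70, 3.02 and 2.84 in tumorous discs, 42.2, 40.1 and 41.7 in ap > Yki discs, 37.7 and 42.4 in ap > NelfAi discs and 69.2 and 60.1 in ap > GFP discs. It had the smallest SE of the named genes lower than additive and was called in each of the 10 fits that left out a library (interaction -2.83, SE 0.25, adjusted p = 0.00337). Its exons overlap those of NijB on the opposite strand. The acyl-CoA synthetase gene pdgy (pudgy) had 10.1, 11.2 and 17.9 in tumorous discs against 49.4 to 104 elsewhere (interaction -2.76, SE 0.37, adjusted p = 0.0157), and the gluconeogenic enzyme gene fbp 1.99, 2.47 and 3.89 against 14.8 to 28.0 elsewhere (interaction -2.61, SE 0.41, adjusted p = 0.0287). The ceramidase gene CDase was at -2.51 (SE 0.41), the glutaminyl cyclase gene QC at -3.04 (SE 0.33) and the juvenile hormone epoxide hydrolase gene Jheh1 at -2.32 (SE 0.38).

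Obp99a, of the family of odorant-binding proteins, had 0.190, 0.548 and 0.449 in tumorous discs against 4.27 to 11.1 elsewhere, with an interaction of -3.18 (SE 0.42, adjusted p = 0.0153). Genes known by number had a like course. CG17919 had 2.61, 7.54 and 6.63 in tumorous discs against 51.9 to 117 elsewhere (interaction -3.36, SE 0.52, adjusted p = 0.0287), and CG33099 had 0.137 to 0.200 in tumorous discs, 6.36 to 9.65 in ap > Yki discs and 1.09 to 1.78 in the libraries without Yki (interaction -3.08, SE 0.34, adjusted p = 0.00725). The other genes called lower had interactions between -3.68 for CG13516 (-3.08 without ap > NelfAi replicate 1 and -4.28 without replicate 2) and -1.55 for CG3770. CG12115 was among them with no read in the tumorous libraries, so that no fold is given for it.

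**Figure D3:**
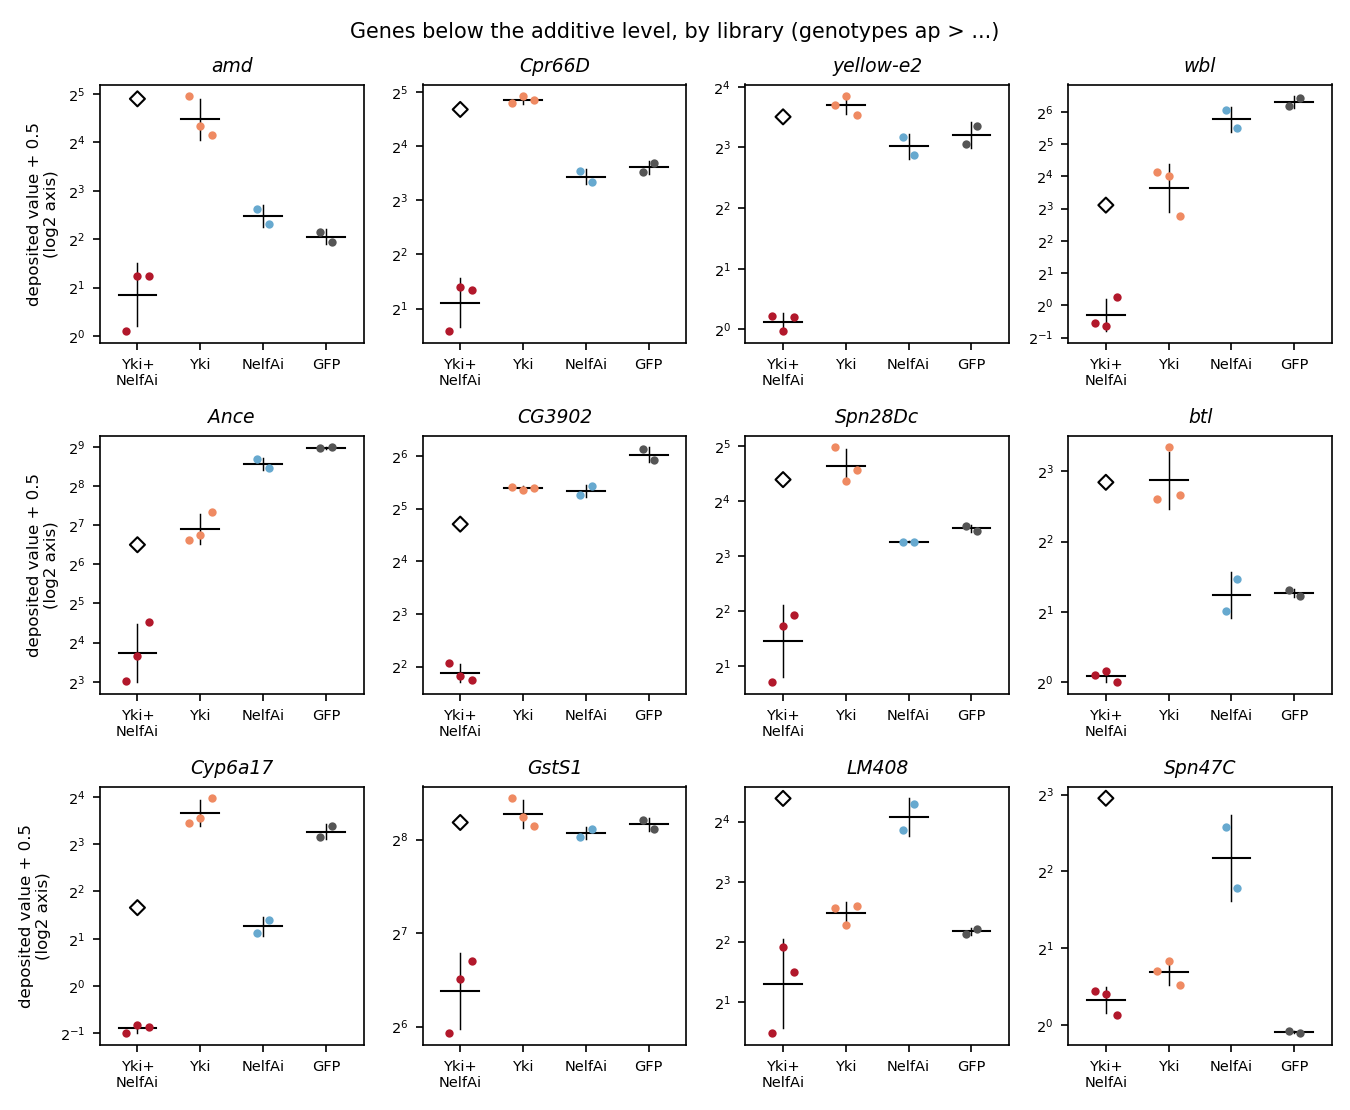
Values of 12 genes called lower than additive in each library (deposited value + 0.5, log2 axis), by genotype. Points are libraries, horizontal bars the mean and vertical bars the SD on the log2 scale, and the open diamond is the level expected for ap > Yki+NelfAi from additive effects. The tumorous libraries lie below the diamond in every panel and below every other library in all but that of Spn47C.

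The functions were then described by lists of genes for the pathways and complexes of the disc, for which only the called members, the median and the number of members on each side of 0 are given. Of the 99 called genes 18 belonged to a list and 81 to none. The Insulin and TOR list had the highest median of the 34 function lists, 0.88 over 19 genes. Thor and ImpL2 were called higher and 15 genes were above 0, against 0.318% and 51.6% of all genes. The median of the list was 0.46 without ap > NelfAi replicate 1 and 1.45 without replicate 2. Sesn, which encodes the stress-induced TOR inhibitor Sestrin, was at 3.25 (SE 0.79, adjusted p = 0.0916), and InR, the insulin receptor, at 3.04 with an SE of 1.61. In the JAK/STAT list upd3 was the member called higher of 11, against 0.318% of all genes. The median of this list was 0.44 and 9 genes were above 0, against 51.6% of all genes. The median was 0.17 without ap > NelfAi replicate 1 and 1.14 without replicate 2. The ligand gene upd1, listed under its older name os, was at 1.06 (SE 0.57), and upd2 at 0.12 (SE 0.52).

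In the Hippo list yki was the member called higher of 17, against 0.318% of all genes, and the median was 0.54. It was -0.04 without ap > NelfAi replicate 1 and 1.34 without replicate 2. The 13 growth targets of Yki had a median of 0.46 with none called. Within them Myc, listed under its older name dm, was at 2.49 (SE 1.11), expanded (ex) at 2.48 (SE 1.17), the inhibitor of apoptosis th (Diap1) at -0.84 (SE 0.34) and CycE at -0.09 (SE 0.53). None of the 19 genes of the JNK pathway and its metalloproteases was called, and their median of 0.34 was -0.06 without ap > NelfAi replicate 1. Mmp1, a matrix metalloprotease, was at 1.46 (SE 0.98), the JNK phosphatase gene puc at 0.71 (SE 0.39), and Ilp8, the relaxin-like peptide that delays pupariation, at -3.14 (SE 0.84, adjusted p = 0.115). The values of Ilp8 were 10.8, 20.4 and 54.8 in tumorous discs, 73.3, 100.02 and 72.3 in ap > Yki discs, 13.8 and 8.64 in ap > NelfAi discs and 6.20 and 2.48 in ap > GFP discs.

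In the ecdysone list ImpL2 was the member called higher of 22, against 0.318% of all genes. ImpE2, an ecdysone-induced gene of the disc, had an interaction of -4.07 (SE 0.91, adjusted p = 0.0725). Its values were 0.379, 1.37 and 3.84 in tumorous discs, 54.6, 63.5 and 21.8 in ap > Yki discs, 718 and 1352 in ap > NelfAi discs and 1246 and 1360 in ap > GFP discs. The median of the list was -0.34 and turned to 0.40 without ap > NelfAi replicate 2.

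Protein synthesis and turnover showed small departures and no called gene. For comparison, 51.6% of all genes tested lay above 0 and 48.4% below. Ribosome biogenesis genes, part of which the study had chosen on these libraries, had a median of 0.27 with 26 of 31 above 0, and -0.01 without ap > NelfAi replicate 2. The 23 aminoacyl-tRNA synthetase genes, part of which the study had listed as raised in the tumorous discs, had a median of 0.28. Proteasome genes, part of which the study had listed as lowered in the tumorous discs, had a median of -0.29 with 31 of 33 below 0. It was -0.03 without ap > NelfAi replicate 1. Genes of translocation, folding and glycosylation in the endoplasmic reticulum had a median of -0.38 with 26 of 32 below 0. All 32 are genes that the study listed as lowered in the tumorous discs of these libraries. The direction of these lists, each chosen in part or in full on these libraries, is therefore no separate evidence. The medians of the cytoplasmic ribosomal proteins (-0.07 over 87 genes) and of the mitochondrial ones (-0.04 over 72 genes) changed sign with the removal of the length trend. No member of these lists passed the test for a departure in either direction.

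Of 12 genes listed for NELF, DSIF, P-TEFb and the 7SK complex none was called (median -0.01). These are RNA levels of the factors, and pausing itself was not measured. The list held both Larp7 and larp, and larp had its largest interaction, 1.93 (SE 1.17). Cdk9 was at 0.24 (SE 0.34), its partner CycT at 1.92 (SE 1.13) and NELF-B at -0.44 (SE 0.33). Heat shock and chaperone genes had a median of 0.37 over 28 genes with none called. Glycolysis genes had a median of 0.32 with 14 of 15 above 0, against 51.6% of all genes. None of them was called, the aldolase gene Ald coming nearest at 1.44 (SE 0.31, adjusted p = 0.069). ImpL3, which encodes lactate dehydrogenase, was at 2.10 (SE 0.68, adjusted p = 0.191). The lists of DNA replication (median -0.21 over 30 genes), mitosis (0.04 over 23), respiration (-0.19 over 25) and apoptosis (-0.22 over 13) held no called gene, and without ap > NelfAi replicate 1 the medians of replication, mitosis and respiration changed sign.

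**Figure D4:**
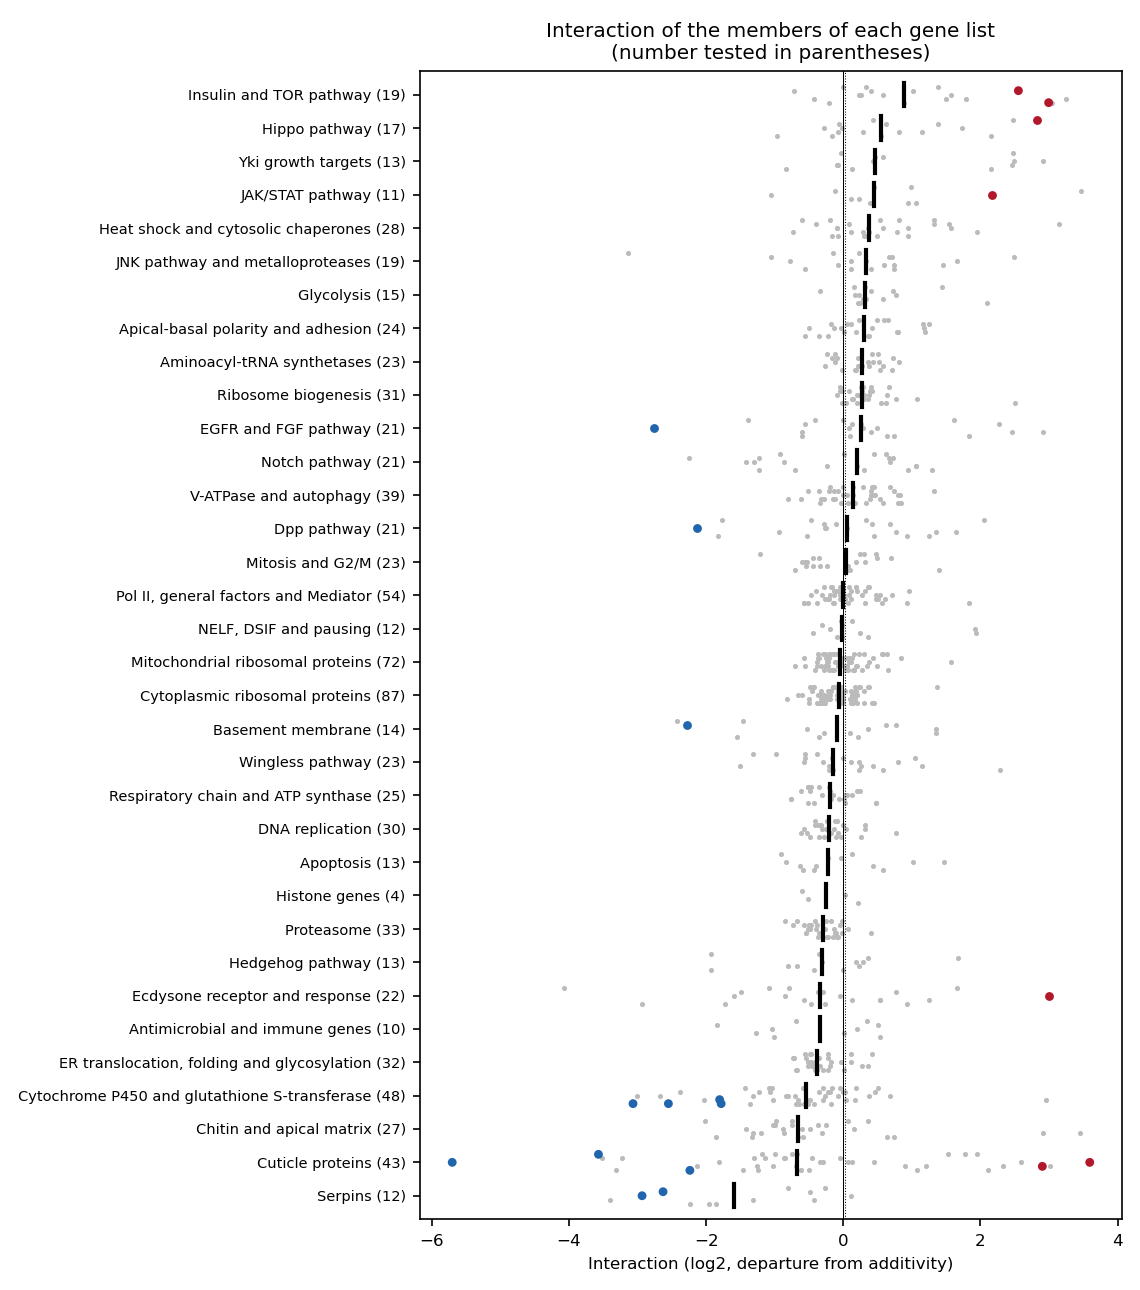
Interaction of each member of 34 gene lists (log2 scale), with 1 row per list and the number of genes tested in parentheses. Grey points are genes that were not called, red and blue points genes called higher and lower than additive, black bars the list medians and the dotted line the median of all genes tested. The serpins have the lowest median, -1.59, and the Insulin and TOR list the highest, 0.88.

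Markers of the other tissues that could adhere to a dissected disc varied between libraries, and none of them but btl was called. For the summed salivary gland and muscle markers, every library with the Yki transgene lay below every library without it. Summed fat body markers were at 40.6 to 76.8 in ap > Yki+NelfAi discs, 30.0 to 189 in ap > Yki discs, 60.8 to 311 in ap > NelfAi discs and 49.6 to 53.2 in ap > GFP discs. The median interaction of the fat body markers was -2.46 with 6 of 7 below 0, against 48.4% of all genes. Summed hemocyte markers were at 31.0 to 33.4 in ap > Yki+NelfAi discs, 19.6 to 51.6 in ap > Yki discs, 32.8 to 71.5 in ap > NelfAi discs and 33.0 to 40.3 in ap > GFP discs. Summed salivary gland markers were at 0.379 to 3.84 in ap > Yki+NelfAi discs, 3.25 to 13.3 in ap > Yki discs, 49.1 to 165 in ap > NelfAi discs and 71.3 to 311 in ap > GFP discs. Muscle markers were at 93.7 to 174 in ap > Yki+NelfAi discs, 130 to 216 in ap > Yki discs, 350 to 1339 in ap > NelfAi discs and 356 to 679 in ap > GFP discs. Their part in the interactions of BM-40-SPARC, the serpins and the other genes lower than additive was not tested. The markers of the wing disc itself were present in every genotype, with summed pouch markers of 321 to 392 in ap > Yki+NelfAi discs, 334 to 527 in ap > Yki discs, 206 to 528 in ap > NelfAi discs and 414 to 440 in ap > GFP discs. The pouch gene pdm2 came nearest to a call, at -3.04 (SE 0.70, adjusted p = 0.0763).

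How many genes departed from additivity depended strongly on single libraries. The sign of all 99 was kept in each of the 10 fits without a library, which their choice by size in the same libraries largely fixes. The counts of genes higher and lower than additive were 25 and 74 with all libraries and 657 and 368 without ap > NelfAi replicate 2, the library with the higher Nelf-A level of that pair. They were 34 and 109 without ap > NelfAi replicate 1. They fell to 2 and 2 without ap > GFP replicate 1, to 3 and 3 without ap > GFP replicate 3, to 2 and 5 without ap > Yki replicate 1, to 2 and 6 without ap > Yki replicate 2 and to 2 and 21 without ap > Yki+NelfAi replicate 2. Without ap > Yki+NelfAi replicate 3 the count of higher genes fell to 10. CG34109 and CG42697 were called higher and yellow-e2 and CG3902 lower in each of the 10 fits, which held for no other gene of the 99. On the recovered reads edgeR called 12 genes higher and 93 lower, so that 88.6% of its calls were lower, against 74.7% by limma, and the median interaction of all genes was lower by 0.13 in its fit. It called 11 of the 25 and 66 of the 74 genes, and DESeq2, which called 100 and 333 genes, called all 74 and all of the 25 but CG34109.

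**Figure D5:**
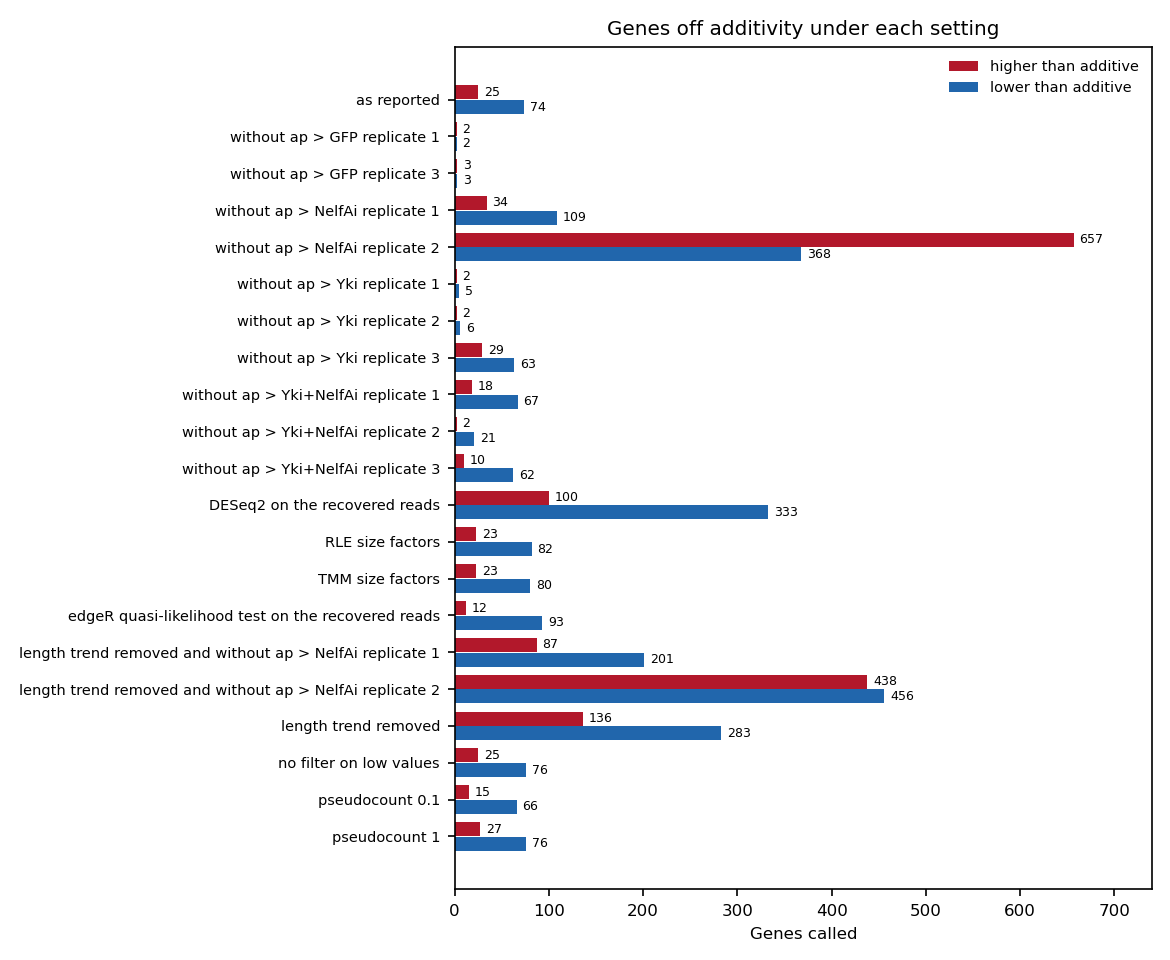
Number of genes called higher (red) and lower (blue) than additive with all libraries (top), without each library in turn and under other settings. Not drawn are the replicate block, with 0 genes called in either direction, no minimum fold and protein-coding genes only. Bars start at 0 and the count is printed at the end of each. Calls were most numerous without ap > NelfAi replicate 2, at 657 and 368 genes, and of the fits with a library left out they were fewest without ap > GFP replicate 1, at 2 and 2 genes.

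The called genes were spread over the genome. Of the 98 with a position 9 lay on X, 18 on 2L, 23 on 2R, 18 on 3L and 30 on 3R, and none on chromosome 4. X held 9.18% of the called genes and 16.9% of the genes tested. Within a distance of 20 kb there were 3 pairs of called genes. These were yellow-e2 with yellow-e, CG1998 with GstT4, and CG13053 with CG13067, which lie 11560 bases apart on 3L and departed in opposite directions, at -2.25 for CG13053. The median transcript length was 2221 bases for the higher genes and 1708 bases for the lower genes, against 2102 bases for all genes tested. Exons of 25 called genes overlap those of another gene, which for the genes given with values holds also for Mrp4, Uhg1, CG17919, Spn47C, QC, pdgy, Jheh1, Irk1, CG13516, CG3770 and CG3649.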

How the data were processed

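RNA-seq libraries of wing imaginal discs (10, from 4 genotypes) were assigned to genotypes from the labels. After alignment with HISAT, the values the authors deposited are a signal, the reads of each gene over a library factor. Whole reads could be recovered for all values (tolerance 0.001 read). The submitters' processing notes also name bcl2fastq, StringTie, edgeR and the build dm6. Whether counting used the strand is not stated, so overlapping genes cannot be told apart. Reads on no gene (28.4% to 36.5%) were left out. The authors' comparison tables (log2 fold changes, mean levels, p-values, FDR) were not used. The reference annotation (Ensembl 115, dm6 coordinates) matched 7864 of the 7987 genes.

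Genes that reached a value of 1 in 2 or more libraries entered limma (version 3.58.1, variance trend) on log2(value + 0.5), in a model of 4 genotypes over all 10 libraries. On this scale changes of low genes are understated. P-values were adjusted by Benjamini-Hochberg over the 7858 genes, and a call needed an adjusted p under 0.05 and 1.5-fold. The labels do not say that replicates are separate biological samples, although the study's methods do, and p-values measure the spread between these libraries. No replicate was a copy of another (chi-square per degree of freedom at least 19.0).

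Named genes are Nelf-A, yki, the 12 largest interactions in each direction among protein-coding called genes with a mean of at least 5 in their highest genotype and an unchanged sign without each library, and up to 3 called members of each list. Other named genes were chosen after their values were seen. The genes described and the lists were chosen with earlier results of these data known. Alternatives were edgeR 4.0.16 and DESeq2 1.42.0 on the recovered reads, TMM and RLE size factors, pseudocounts of 0.1 and 1, no filter, no minimum fold, protein-coding genes only, the replicate block, removal of each library's length trend (lowess, span 0.3), and each library left out. The fit was also run on simulated reads. These had no length trend and no ap > NelfAi libraries that stood apart, so they do not test the calls against those features. A planned count of promoter motifs was not run, as no sequence was used here.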

Additional observations from a re-analysis of the deposited data

Results flagged for a closer look

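The effect of the RNAi differed between the backgrounds with and without Yki, by the interaction term in limma, for 25 genes upward and 74 downward, and these are the departures described above. Among the genes named by the rule on size and lists, the upward differences on the log2 scale were 4.82 for CG34109, 4.26 for CG13067, 3.89 for Nplp4, 3.71 for CG42697, 3.59 for Lcp65Ac, 3.14 for CG42319, 3.13 for fok, 2.99 for ImpL2, 2.90 for Cpr47Eb, 2.84 for Mrp4, 2.82 for yki, 2.71 for CG42575, 2.55 for Thor and 2.17 for upd3. The downward differences were -5.70 for Cpr49Ah, -4.05 for amd, -3.57 for Cpr66D, -3.42 for wbl, -3.37 for yellow-e2, -3.36 for CG17919, -3.25 for CG4914, -3.25 for NijA, -3.18 for Obp99a, -3.08 for LM408, -3.08 for CG33099, -3.07 for GstO3, -2.93 for Spn28Dc, -2.76 for btl, -2.63 for Spn47C, -2.55 for Cyp6a17, -2.27 for BM-40-SPARC, -2.14 for tld and -1.80 for GstS1. No genotype has 4 libraries, so a library that stands apart within its genotype was not tested for.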

How the results depend on the processing

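The counts of genes higher and lower than additive, 25 and 74, were 100 and 333 by DESeq2, 12 and 93 by edgeR, 15 and 66 with a pseudocount of 0.1, and 136 and 283 with each library's length trend removed. With the trend removed they were 87 and 201 without ap > NelfAi replicate 1, and 438 and 456 without replicate 2, settings chosen after seeing the data. With 1 library left out at a time they ranged over 2 to 657 higher and 2 to 368 lower. With the replicate number as a block both counts were 0, at a lowest adjusted p of 0.0540 and 874 genes at an unadjusted p under 0.05. The deviations of 12 same-numbered pairs from their genotype means correlated at -0.43 to 0.59, and 4 pairs were over 0.1. With so few libraries per genotype these correlations cannot show whether the replicate numbers mark a batch. The genes bounded within 1.5-fold were 62 with a 95% interval and 358 with a 90% interval. Of 2100 values of the genes described under the alternatives, 5 changed sign, all of Nelf-A, whose interaction of -0.01 became 0.075 with the block and, with 1 library left out, lay between -0.76 (without ap > NelfAi replicate 1) and 0.73: 0.070 without ap > GFP replicate 3, 0.73 without ap > NelfAi replicate 2, 0.12 without ap > Yki replicate 3 and 0.02 without ap > Yki+NelfAi replicate 2. List medians changed sign in at least 1 alternative for 27 of 44 lists and kept it for 17. The causes were not tested. Depth limits the lowest genes, where 1 read is worth up to 0.0839 and the pseudocount sets the size.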
